A study of Mus musculus with 4 samples.

Results

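The genes described here are 9 single-copy genes of the B lineage and of plasma cells, Cd79a, Cd79b, Ms4a1, Pax5, Blnk, Pou2af1, Jchain, Mzb1 and Derl3, out of 50593 genes in the deposited table. They were taken by gene symbol, and they had been selected on the contrast examined here, the lower value in HSF V30M nerve. Their differences between the groups are therefore given as a description, with no test. Each of the 9 was found once in the table.

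The RNA came from the sciatic nerve of mice of the strain labelled 129S1/SvImJ, all 6 months old. HSF V30M mice carry the human TTR V30M transgene, lack endogenous Ttr and are heterozygous for a deletion of Hsf1, the gene of heat shock factor 1. HSF WT mice carry the same heterozygous Hsf1 deletion and no transgene, so that both groups share this deletion by genotype. The labels list 2 mice per group, but the table holds 1 FPKM value (fragments per kilobase of transcript, scaled to depth) for each gene and group, and no spread between mice can be given. The promoter driving the transgene is not given in the sources used here. Mouse Ttr was at 6.10 FPKM under the label HSF V30M and at 0 under the label HSF WT, the reverse of what the null allele alone would give. Reads of the human transgene cannot be told apart from reads of the mouse gene in this table, so Ttr does not check the labels, and every direction below is that of the groups as labelled. Hsf1 had 7.94 in HSF V30M against 15.0 in HSF WT, so its level was not equal in the groups although both carry the deletion, and the part of this in the members' values was not tested. The tissue label was met by the Schwann cell genes, with Mbp, the myelin basic protein gene, at 3854 in HSF V30M against 3441 in HSF WT.

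B cells recognise antigen through a membrane immunoglobulin that signals through the paired chains CD79A and CD79B, and the adaptor BLNK links the receptor-proximal kinase to the pathways downstream. The identity of a B cell is held by the transcription factor PAX5, and the coactivator POU2AF1 acts with octamer-binding factors on immunoglobulin promoters. When a B cell becomes a plasma cell it builds a large secretory apparatus, in which the J chain joins the polymeric immunoglobulins, MZB1 assists their folding and DERL3 takes part in the disposal of misfolded proteins. Healthy peripheral nerve holds few cells of this lineage.

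The regulatory sequence close to the start of these genes was read from the RefSeq promoter table (GRCm38.p6), which covers 250 bases before to 50 bases after each start and holds 6 of the 9 genes, without Cd79b, Ms4a1 and Mzb1. The stretches shown were taken because each holds an element linked to B cells or to the secretory pathway, and because members are set side by side below by those roles. The motifs were chosen after the members' values and windows were seen. Both strands were searched, capitals mark the match, and each stretch is written 5′ to 3′ on the strand of the gene. For Blnk, 30 bases are shown around the octamer ATGCAAAT, the element bound by the octamer factors with which POU2AF1 acts, which lies here on the opposite strand (chr19:40994333-40994362, minus strand, positions -141 to -112 from the RefSeq start, inside the first exon and 5′ UTR of a longer GENCODE transcript). For Derl3, the 250 bases before the start are shown with the ER stress response element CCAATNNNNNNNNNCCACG on the opposite strand (chr10:75893148-75893397, plus strand). For Pou2af1, the 250 bases before the start are shown with the unfolded protein response element TGACGTGG on the strand of the gene (chr9:51213440-51213689, plus strand). The stretches of Derl3 and Pou2af1 overlap no GENCODE transcript.
Blnk: tactggaagggATTTGCATgcccaataagg
Derl3: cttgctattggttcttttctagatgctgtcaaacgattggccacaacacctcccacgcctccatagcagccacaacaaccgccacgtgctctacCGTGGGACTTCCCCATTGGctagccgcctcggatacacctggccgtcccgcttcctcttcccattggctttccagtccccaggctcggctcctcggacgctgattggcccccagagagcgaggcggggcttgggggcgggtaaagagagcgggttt
Pou2af1: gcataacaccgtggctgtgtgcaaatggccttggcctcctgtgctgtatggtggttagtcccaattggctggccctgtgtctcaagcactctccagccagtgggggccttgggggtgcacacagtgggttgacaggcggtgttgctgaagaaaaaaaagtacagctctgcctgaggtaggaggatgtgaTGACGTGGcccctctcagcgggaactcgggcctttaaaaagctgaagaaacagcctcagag

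The match in Derl3 runs from position -156 to -138 from the start, and 39 of 32851 mouse promoter windows of this length, 0.119%, hold this element. The match in Pou2af1 runs from -61 to -54, and its element is in 222 windows, 0.676%. The octamer is in 570 windows, 1.74%, and among the 6 member windows it was found in that of Blnk and in no other. The E-box CAGGTG was found in 4 of the 6 member windows, those of Jchain, Cd79a, Derl3 and Blnk, and is common, with 6640 windows, 20.2%. None of the motifs was shared by all 6 windows. A match is a run of letters and was not tested as a binding site.

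All 9 genes had a lower FPKM in HSF V30M than in HSF WT, and their summed FPKM was 8.66 in HSF V30M against 84.5 in HSF WT. In whole nerve, fewer cells of a type and less RNA per cell cannot be told apart. Ratios of HSF V30M over HSF WT were taken as log2((FPKM + 1)/(FPKM + 1)), which understates the change of low genes, and a gene was counted as lower or higher when this ratio passed a fold of 1.5 and its mean FPKM over the 2 groups was at least 1. By this count 8 of the 9 genes reached the minimum and 8 were lower, with a median log2 ratio of -1.96, which was -3.38 with a pseudocount of 0.1 in place of 1. Over all 15620 genes reaching the minimum, 8.44% were lower and 8.22% were higher, and the median log2 ratio was 0.00. Among the 12715 protein-coding genes, 5.32% were lower. Nothing is read from the members' count, since they were chosen by this contrast, and 5 of the 8 reached the minimum only through their HSF WT value. Of the 8 genes, Blnk was nearest to the fold, with a ratio of -0.87, and Ms4a1, at -0.83, was past the fold but under the minimum mean.

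**Figure D1:**
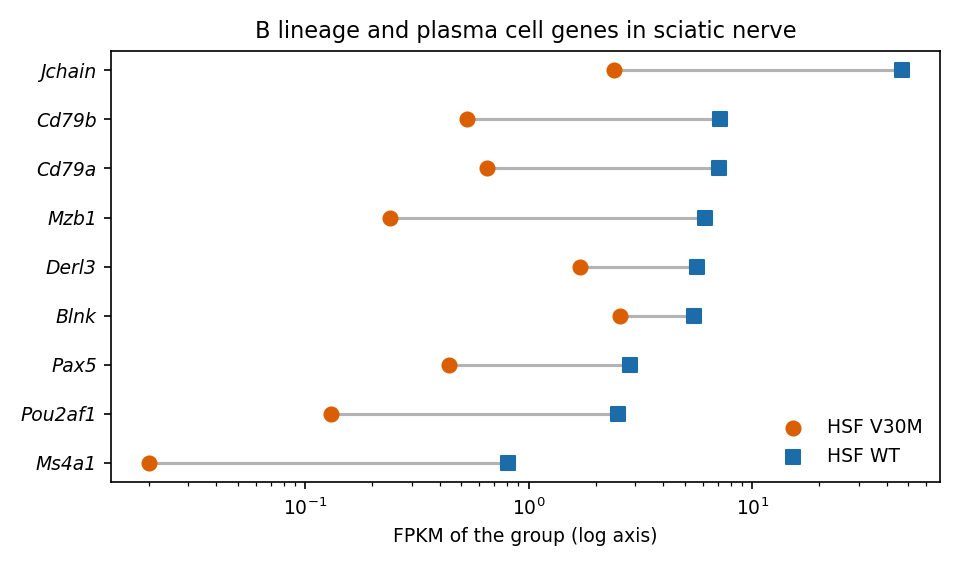
FPKM of the 9 genes in HSF V30M and HSF WT on a log axis, 1 point per gene and group, with a line joining the groups. Every HSF WT point lies to the right of its HSF V30M point, from Ms4a1 (0.02 and 0.807) to Jchain (2.40 and 46.9).

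The signalling chains of the B cell receptor had similar FPKM values in each group, though few fragments stand behind those of HSF V30M. Cd79a (ENSMUSG00000003379), which encodes the first chain, lies on the plus strand of chromosome 7 (chr7:24897381-24902197, GRCm38), with 1 annotated transcript of 5 exons and 1457 bases. It was at an FPKM of 0.65 in HSF V30M against 7.09 in HSF WT, a log2 ratio of -2.29. Cd79b (ENSMUSG00000040592), the partner chain, lies on the minus strand of chromosome 11 (chr11:106311341-106314762). Its FPKM was 0.53 in HSF V30M against 7.16 in HSF WT, a log2 ratio of -2.42. Cd79a over Cd79b in FPKM was 1.23 in HSF V30M against 0.991 in HSF WT, so these chains, which work as a unit, kept nearly equal levels at the low and at the high end.

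Blnk (ENSMUSG00000061132), the adaptor downstream of the receptor, lies on the minus strand of chromosome 19 (chr19:40928927-40994535). Its FPKM was 2.55 in HSF V30M against 5.48 in HSF WT, a log2 ratio of -0.87, the smallest difference among the 8 genes reaching the minimum. Blnk stood below Cd79a in HSF WT, at 0.772 of its FPKM, and above it in HSF V30M, at 3.92 times its FPKM. BLNK is also made in macrophages, of whose 8 marker genes 2 were lower, with a median of -0.48, and the part of those cells in the Blnk values was not tested.

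Ms4a1 (ENSMUSG00000024673) encodes CD20, a surface protein of mature B cells that is lost in plasma cells, and lies on the minus strand of chromosome 19 (chr19:11249675-11266241). Its FPKM was 0.02 in HSF V30M against 0.807 in HSF WT. The HSF V30M values are written to 2 decimals, so that this value carries a large rounding error, and it stands for about 1 fragment. The locus given in the table is shared with Ms4a5, Ms4a12 and 4930526L06Rik, of which Ms4a12 had an FPKM of 0.109 in HSF WT and the others are listed at 0 in both groups.

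The factors of B cell identity were low in both groups. Pax5 (ENSMUSG00000014030) lies on the minus strand of chromosome 4 (chr4:44524757-44710487) and had an FPKM of 0.44 in HSF V30M against 2.85 in HSF WT, a log2 ratio of -1.42. It has 20 annotated transcripts, 14 of them coding, with lengths from 631 to 8004 bases, and 4 other genes lie within it, so that its FPKM depends more than that of the other members on how fragments were shared among transcripts. Those 4 genes had FPKM values of at most 0.03 in HSF V30M against 0.237 in HSF WT. Pou2af1 (ENSMUSG00000032053) lies on the plus strand of chromosome 9 (chr9:51213708-51240080) and had an FPKM of 0.13 in HSF V30M against 2.505 in HSF WT, a log2 ratio of -1.63. A gene on the same strand, RP24-173L14.4, overlaps it and had 0 and 0.124.

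The secretory genes held both the largest and one of the smaller differences. Jchain (ENSMUSG00000067149) lies on the minus strand of chromosome 5 (chr5:88519809-88527891), with a coding transcript of 4 exons and 1393 bases. Its FPKM was 2.40 in HSF V30M against 46.9 in HSF WT, a log2 ratio of -3.82, place 121 from the lowest among the 15620 genes. Mzb1 (ENSMUSG00000024353), on the minus strand of chromosome 18 (chr18:35647267-35649367), had 0.24 in HSF V30M against 6.12 in HSF WT, a log2 ratio of -2.52. Jchain was by far the highest member in HSF WT, while Mzb1 there was close to the receptor chains.

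Derl3 (ENSMUSG00000009092), on the plus strand of chromosome 10 (chr10:75893413-75895941), had an FPKM of 1.70 in HSF V30M against 5.64 in HSF WT, a log2 ratio of -1.30. Derl3 over Mzb1 in FPKM was 0.921 in HSF WT and 7.08 in HSF V30M. Jchain over Cd79a was 6.60 in HSF WT and 3.69 in HSF V30M, where Cd79a rests on about 19 fragments.

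**Figure D2:**
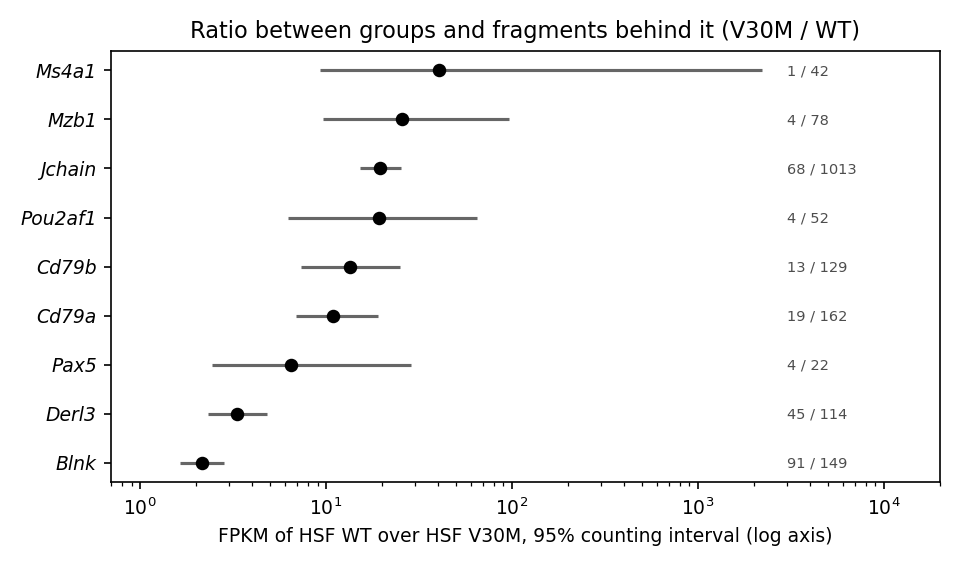
FPKM of HSF WT over HSF V30M for each gene on a log axis, with 95% exact intervals that cover counting error only and, at the right, the estimated fragments in HSF V30M and HSF WT. The genes were chosen for a lower HSF V30M value, so the intervals show precision only, which is highest for Jchain (15.2 to 25.3) and lowest for Ms4a1 (9.34 to 2221).

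The number of fragments behind these values was estimated from the low values of single-transcript genes, which fall on multiples of what 1 fragment of each library is worth. This placed the deeper HSF V30M library at 1.23 times the depth of the deeper HSF WT library, so the lower HSF V30M values were not accompanied by a lower depth. Taking the shortest coding transcript of at least 600 bases, the 9 genes together stood for about 249 fragments in HSF V30M against 1761 in HSF WT. Jchain supplied about 68 in HSF V30M against 1013 in HSF WT. The smallest counts in HSF V30M were about 1 fragment for Ms4a1 and about 4 each for Pax5, Pou2af1 and Mzb1. For Pax5 the number rests on the transcript assumed, with 4 to 88 fragments in HSF V30M and 19 to 463 in HSF WT over its coding transcripts.

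The counting error of each fold was set beside it as a measure of precision and not as a test, since the genes were chosen for their lower HSF V30M values. Jchain was 19.5-fold higher in HSF WT, with a 95% interval of 15.2 to 25.3 (exact, conditional on the total). The interval was 6.91 to 19.0 around 10.9 for Cd79a and 7.33 to 25.04 around 13.5 for Cd79b. These receptor intervals overlap each other, and those of Cd79a and Cd79b also overlap that of Jchain. Mzb1 had a fold of 25.5 with an interval of 9.57 to 95.9, and Pou2af1 one of 19.3 with an interval of 6.26 to 64.7. Pax5 had a fold of 6.48 (2.44 to 28.7), Derl3 one of 3.32 (2.33 to 4.79) and Blnk one of 2.15 (1.64 to 2.81). The upper bounds for Derl3 and Blnk lie below the lower bounds for Cd79a, Cd79b, Jchain, Mzb1 and Pou2af1, while the interval of Pax5 overlaps all of them. The Pax5 interval assumes its shortest coding transcript of at least 600 bases, and longer ones would give more fragments and a narrower interval. For Ms4a1 the fold of 40.4 has an interval from 9.34 to 2221, which sets a lower limit and little else. These intervals hold no variation between mice, which the table does not give.

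The order of the levels, per length, differed between the groups. In HSF WT it was Jchain, Cd79b, Cd79a, Mzb1, Derl3, Blnk, Pax5, Pou2af1 and Ms4a1. Jchain, with a 95% counting interval of 44.0 to 49.8, stood clear of the rest, and the next 5 genes formed a group from 7.16 down to 5.48 in which each interval overlapped that of its neighbour, as did those of Pax5 and Pou2af1. Ms4a1, at 0.582 to 1.09, stood below all of them. In HSF V30M the order was Blnk, Jchain, Derl3, Cd79a, Cd79b, Pax5, Mzb1, Pou2af1 and Ms4a1. There Blnk (2.05 to 3.13), Jchain (1.86 to 3.04) and Derl3 (1.24 to 2.27) overlapped and stood above Cd79a (0.391 to 1.02), and from Cd79a downward each interval overlapped that of its neighbour.

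**Figure D3:**
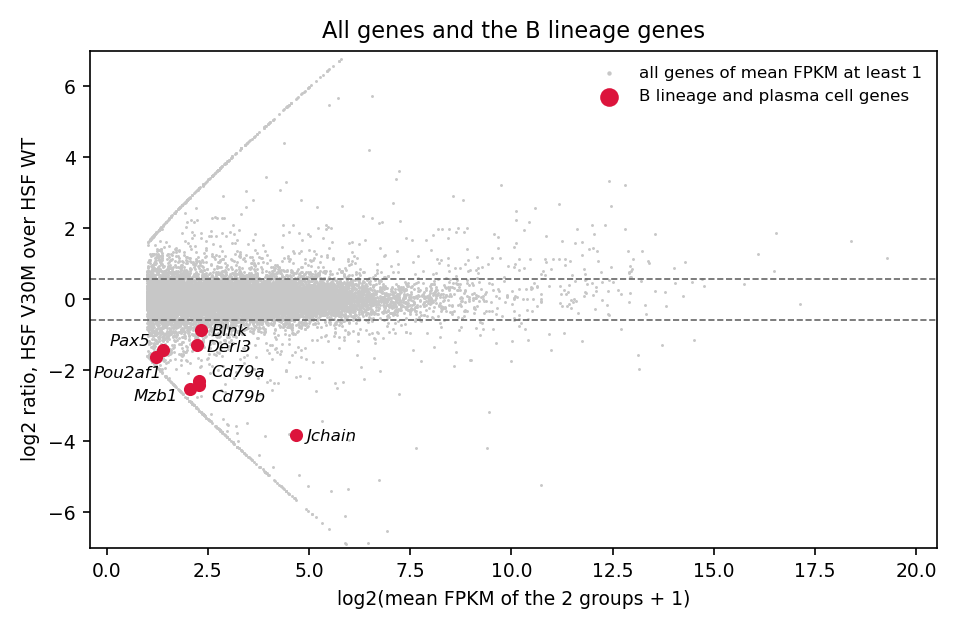
Log2 ratio (HSF V30M over HSF WT, on FPKM + 1) against log2(mean FPKM + 1) for the 15620 genes past the minimum mean FPKM of 1 (grey), with the 8 B lineage genes reaching that minimum in red and the fold of 1.5 dashed. The diagonal edges are genes listed at 0 in one group, 19 points lie beyond the vertical axis, and the members sit between -0.87 (Blnk) and -3.82 (Jchain).

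The members lie on 8 chromosomes, and the genes beside them were examined for a regional difference. Of 31 protein-coding genes within 100 kb of a member and past the minimum mean, 2 were lower, 0 were higher, and the median log2 ratio was -0.05. Among all 12715 protein-coding genes past it, 5.32% were lower, and nothing is read from the neighbours' count. Both lower neighbours lie near Cd79b. Ccdc47, an endoplasmic reticulum protein gene, had an FPKM of 21.7 in HSF V30M against 36.4 in HSF WT, and Ern1, which encodes the stress sensor IRE1 alpha, had 5 and 8.51. Their log2 ratios, -0.72 and -0.66, were smaller than the -2.42 of Cd79b.

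Other genes of the lineage were taken as lists in 4 groups, with no gene shared with the members. Of 52 such genes, 35 reached the minimum, 12 were lower, 0 were higher and 23 were within the fold, with a median log2 ratio of -0.48. The shares over all 15620 genes reaching it were 8.44% lower and 8.22% higher. Within the lists, 3 coreceptors or kinases, 1 surface gene and 1 transcription factor reached the minimum only through HSF WT. In the other direction, 1 plasma cell gene reached it only through HSF V30M. Lists and members were drawn up with results of these data known, so these counts are not independent evidence of a direction.

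Among 16 receptor coreceptors and kinases, 13 reached the minimum, 3 of them only through HSF WT, and 5 were lower, with a median of -0.57, which was 0.0030 with a minimum mean of 5. Cd22, an inhibitory coreceptor, had an FPKM of 1.26 in HSF V30M against 8.49 in HSF WT (log2 ratio -2.07). The scaffold Bank1 had 0.71 and 2.04 (-0.83), the inhibitory receptor Cd72 had 5.17 and 8.38 (-0.60), and the adaptor Dok3 had 1.65 and 2.997 (-0.59). Cd81, a widely expressed tetraspanin, was the highest of the list and within the fold, at 311 and 252. Fcgr2b, the inhibitory Fc receptor, had 19.7 and 17.2, and the kinase Syk had 7.57 and 11.8 (-0.58), just inside the fold of 1.5.

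Of 14 surface genes of mature B cells, 5 reached the minimum, 1 of them only through HSF WT, and 4 were lower. The median was -0.79, and every one of the 14 had the lower value in HSF V30M. Ly6d, a surface protein of early and mature B cells, had 0.08 in HSF V30M against 2.91 in HSF WT (-1.86). Ltb, the lymphotoxin beta gene, had 1.25 and 4.2 (-1.21), Cd180, a regulator of Toll-like receptor signalling, 1.93 and 4.08 (-0.79), and the tetraspanin Cd37 9.75 and 16.4 (-0.69). Cd83 had 4.25 and 6.34 (-0.48) and was within the fold. Vpreb3 is listed at 0 in HSF V30M, where 3 fragments would have given 0.261, and had 0.305 in HSF WT, so a difference was not detectable at this depth.

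Of 10 B lineage transcription factors, 8 reached the minimum, 1 of them only through HSF WT, and 2 were lower, with a median of -0.29. Ikzf3, the lymphoid factor Aiolos, had 0.82 in HSF V30M against 4.96 in HSF WT (-1.71), and Irf8, which B cells share with macrophages and dendritic cells, had 7.25 and 14.7 (-0.92). Ebf1, which acts with PAX5 in B cells and is also expressed in other tissues, had 17.1 and 17.8. Tcf3 had 24.2 and 20.8, and Foxo1 had 8.90 and 8.28. Unlike Pax5, these broadly expressed factors were within the fold. So were Ikzf1 at 4.71 and 5.45 (-0.17), Pou2f2 at 1.40 and 2.17 (-0.40) and Bach2 at 5.56 and 8.64 (-0.56).

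Of 12 plasma cell genes, 9 reached the minimum and 1 was lower, with a median of -0.19. That gene was Tnfrsf13b, which encodes the receptor TACI of B cells and plasma cells, at 1.09 in HSF V30M against 3.30 in HSF WT (-1.04). Sdc1, the syndecan that marks plasma cells and is also made by other cell types, had 69.3 and 60.5. Xbp1, the factor of the secretory programme, had 45.6 and 52.3, and Sec11c, a signal peptidase subunit, had 26.6 and 40.3 (-0.58). Fcrl5 is listed at 0 in HSF V30M, where 3 fragments would have given 0.0568, and had 0.497 in HSF WT. Of the 9 ratios, 7 were below 0 and 2 above, those of Sdc1 and Slamf7. Slamf7 had 1.76 in HSF V30M against 0.844 in HSF WT (0.58), the highest ratio of the list, and was within the fold. Irf4, with a log2 ratio of -0.34, was also within it. Under the minimum mean, Tnfrsf17 had 0.6 and 0.605, and Prdm1 had 0.78 and 1.10. Of 13 genes of the general secretory pathway of the endoplasmic reticulum, all reached the minimum and none passed the fold in either direction, with a median of -0.12. The chaperone Hspa5 had 98.5 and 144 (-0.54), Hsp90b1 had 82.9 and 111 (-0.42) and Herpud1 had 55.2 and 46.8. Jchain and Mzb1 thus differed in size from these widely expressed secretory genes, a comparison given here by their values and not tested.

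The immunoglobulin constant genes, whose products Jchain and Mzb1 serve, were all lower, 12 of 12, with 5 of them past the minimum only through HSF WT, with summed FPKM values of 133 in HSF V30M against 2030 in HSF WT and a median of -2.44. Their ratios ran from -0.95 for Ighd to -5.34 for Ighg3, at 1.99 and 120, and the near-identical lambda constant genes share reads and are uncertain one by one.

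Apart from Il7r and Cd93, genes of B cell precursors were at or near 0. Il7r had 0.48 in HSF V30M against 1.16 in HSF WT (-0.54) and was under the minimum mean. Dntt, Rag2, Igll1 and Vpreb2, which serve receptor gene assembly and the pre-B cell receptor, are listed at 0 in both groups, where 3 fragments would have given at most 0.247 in HSF V30M against 0.348 in HSF WT. Of the 8 genes of that list 1 reached the minimum, Cd93, which endothelium also expresses, with 7.29 and 7.48. Of 6 germinal centre genes 3 reached the minimum and none passed the fold, with a median of 0.17 and Bcl6 at 17.8 and 15.7, S1pr2 at 7.21 and 4.90 and Mybl1 at 1.23 and 1.36. Of 8 ligands that attract or sustain B cells, 6 reached the minimum and 1 was lower, with a median of -0.25. That ligand was Cxcl13, the attractant of B cells, at 1 in HSF V30M against 4.45 in HSF WT (-1.45). Cxcl12 had 42.6 and 35.9, Ccl21a, which has near-identical copies, had 25.1 and 34.9, and Tnfsf13b, the survival factor BAFF, had 4.26 and 6.37 (-0.49). Of 7 lymph node genes, 4 of which also stand in another list, 2 reached the minimum and none of these passed the fold. Chst4, at 0.12 and 0, and Madcam1, at 0 and 0.0870, were near 0, and Glycam1, at 0.71 and 1.22, was under the minimum mean. Of the 7 genes, 6 had the lower value in HSF V30M, among them Cr2 at 0.46 and 1.51 and Fcer2a at 0.45 and 0.957. The ratio of Cr2, -0.78, was past the fold, but the gene was under the minimum mean. The part of lymph node tissue in the members' values was not tested.

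**Figure D4:**
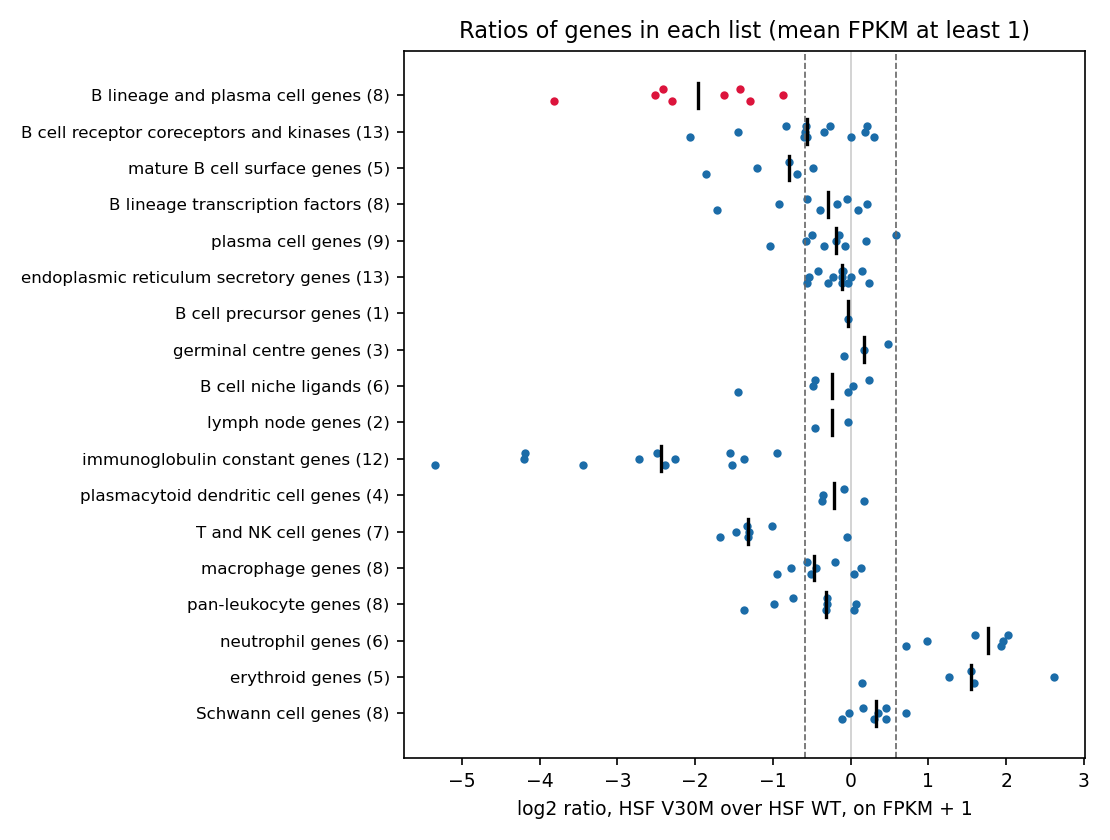
Log2 ratio (HSF V30M over HSF WT, on FPKM + 1) of each gene past the minimum mean FPKM of 1 in the 9 members and in the other lists, 1 point per gene, with the median of each list as a bar and the fold of 1.5 dashed. The members (median -1.96), the immunoglobulin constant genes (-2.44) and the T and NK cell genes (-1.32) lie lowest, and the neutrophil (1.76) and erythroid genes (1.55) lie highest.

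Markers of other blood cells moved with the members, some in the same direction and some in the opposite one. Of 15 T and NK cell genes, 7 reached the minimum, 4 of them only through HSF WT, and 6 were lower, with a median of -1.32 and summed FPKM values of 8.20 in HSF V30M against 26.7 in HSF WT. Cd4 had 0.52 and 3.88 (-1.68), Lck 0.67 and 3.63 (-1.47), Cd2 1.22 and 4.58 (-1.33), Cd3e 0.32 and 2.29 (-1.32), Trbc2 0.55 and 2.83 (-1.30) and Trac 1.2 and 3.43 (-1.01). Cd247 had 1.91 and 2.01 and was within the fold. Under the minimum mean, Cd3d had 0.51 and 0.486 and Cd3g had 0.26 and 0.364, so the CD3 genes did not all follow Cd3e. Of the 15 genes, 14 had the lower value in HSF V30M. Over all 15620 genes reaching the minimum, 8.44% were lower. A lower value in HSF V30M was thus not limited to the B lineage members, and nothing more is read from this count.

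Of 8 genes shared by leukocytes, 3 were lower, with a median of -0.31 and sums of 123 and 164. Ptprc, which encodes CD45, had 5.79 and 12.4 (-0.98), Cd52 had 9.08 and 25.2 (-1.38) and Rac2 had 3.12 and 5.89 (-0.74). Of the 8 ratios, 6 were below 0 and 2 above, those of Coro1a at 26.8 and 26.0 and Itgb2 at 11.3 and 10.7. Of 8 macrophage genes, 2 were lower, Cd68 at 15.5 and 30.9 (-0.95) and Aif1 at 5.43 and 9.98 (-0.77), and the sums were 286 and 388. Within the fold, Lyz2 had 194 and 266 (-0.45) and Csf1r 31.2 and 36.0 (-0.20). Of the 8 ratios, 6 were below 0 and 2 above, those of Adgre1 at 7.98 and 7.70 and Cd163 at 14.4 and 13.0. Of 8 plasmacytoid dendritic cell genes, 4 reached the minimum and none of these passed the fold, with a median of -0.22 and the defining gene Siglech at 2.06 and 2.95. Klk1 of this list, at 0.17 and 1.53 (-1.11), was past the fold but under the minimum mean. In the opposite direction, 6 of the 8 neutrophil genes reached the minimum and 6 were higher, with a median of 1.76, sums of 107 and 26.5 and S100a9 at 59.0 and 13.8. Of 6 erythroid genes, 5 reached the minimum and 4 were higher, with a median of 1.55, sums of 289 and 99.7 and Hbb-bs at 111 and 37.1. Of 8 Schwann cell genes, 1 was higher, S100b at 328 and 201 (0.71), with a median of 0.33. The part of these cell mixtures in the members' values was not tested.

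The 10 protein-coding genes outside the members and the immunoglobulin genes whose ratio lay nearest the members' median of -1.96, over the 2 groups, included 2 further B lineage genes, Cd22 (-2.07) and Ly6d (-1.86). The others were Pianp at 1.71 in HSF V30M against 9.78 in HSF WT, Zfp865 at 7.68 and 33.8, Lep, the leptin gene of adipocytes, at 7.47 and 33.4, Rap1gap at 31.7 and 121, Mylpf and Tnnc2, genes of fast skeletal muscle, at 7.55 and 33.9 and at 2.57 and 13.8, Ctse, a cathepsin gene, at 0.57 and 5.56, and Gm10226, listed at 0 in HSF V30M against at 3.18 in HSF WT. A ratio of this size was thus also found in genes of fat and of muscle, and a likeness over 2 group values says nothing of shared cells.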

How the data were processed

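RNA from sciatic nerve was sequenced by Ion Torrent protocols. Per the submitters' processing notes, STAR, Cufflinks and Cuffdiff were used with the GRCm38 build, with no versions given. The authors deposited 1 comparison table with 1 FPKM value per gene and group, estimated by Cuffdiff over the 2 libraries of a group. This value is printed as the authors' group value, with no SD. The table also holds the authors' fold changes, p-values and q-values, which were not used. Values were written with decimal commas and were read as numbers, and the HSF V30M values have 2 decimals. The 23 genes with too many alignments were left out.

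The members and all lists were chosen with earlier results of these data known. Ratios used a pseudocount of 1, a minimum mean FPKM of 1 and a fold over 1.5. No test was run, since 1 value per group leaves no replicate check. Named from each list were the genes past the fold, up to 3 others of highest mean and defining genes at 0, and the 10 genes nearest the members' median. Further genes within the fold or under the minimum are named from the transcription factor, plasma cell, lymph node, leukocyte and macrophage lists. Such genes are also named from the B cell precursor, plasmacytoid dendritic cell and T and NK cell lists. Some genes counted in the lists are not reported here by name.

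For depth, 201 bases were taken from transcript lengths. In 727 values of HSF V30M and 1131 of HSF WT, FPKM times effective kilobases fell on multiples of 0.0390 and 0.0459, and of 0.0480 and 0.0647, the worth of 1 fragment in each library. The fit was tested on simulated data of 3000 genes and recovered the worths within 0.05%. Those data were made by the model of the fit, with the bases taken from the length known. The test therefore checks the fitting step and not the accuracy of the fragment estimates. Intervals are exact (Poisson and Clopper-Pearson) at the 95% level and cover counting error only, and a limit at 0 is 3 fragments. Positions are from GENCODE M21, which holds 50369 of the gene identifiers. The tools were matplotlib 3.10.9, scipy 1.17.1, pandas 2.3.3 and numpy 2.4.6 under Python 3.11.15. As alternatives, a minimum mean of 5 or none, a fold over 2, median-of-ratios scaling, a pseudocount of 0.1, each member left out and full transcript lengths were tried.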

Additional observations from a re-analysis of the deposited data

How the results depend on the processing

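No paired analysis was possible because FPKM is given per group and not per mouse, and for that reason no replicate could be left out. With a pseudocount of 0.1, the median log2 ratio of the members was -3.38, that of the T and NK cell genes was -2.17, and the single ratios that moved by more than 1.5 times were those of Ms4a1 (-2.92), Pax5 (-2.45), Pou2af1 (-3.50) and Mzb1 (-4.19), which have the lowest HSF V30M values. With a minimum mean FPKM of 5, Jchain is the 1 member left, so that the members' count was 1 and their median -3.82. There, 3 of 21 other B lineage genes were lower, no T or NK cell gene is left, and the medians were 0.0030 for coreceptors and kinases, -0.11 for transcription factors, -0.46 for niche ligands and -0.082 for plasmacytoid dendritic cell genes. With no minimum, 20 of 52 other B lineage genes were lower, and the medians were 0.00093 for germinal centre genes, -0.0036 for niche ligands and -0.53 for T and NK cell genes. With a fold over 2, 6 of 35 other B lineage genes were lower. The share of all genes lower was 10.8% with the pseudocount of 0.1, 6.33% with the minimum of 5, 6.30% with none and 3.94% with the fold over 2. Leaving out each member in turn gave medians from -2.29 to -1.63, and full transcript lengths gave 289 and 2070 fragments. Of the values above, the median for coreceptors and kinases changed sign, from -0.57 to 0.0030. The other 86 values, median-of-ratios scaling included, kept their sign and stayed within 1.5 times. Depth limits Ms4a1, Pax5, Pou2af1 and Mzb1, with about 1 to 4 fragments in HSF V30M when the shortest coding transcript is assumed, a choice that matters most for Pax5.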
